A study of Mus musculus with 12 samples.

Results

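The influence of a co-culture partner on mouse spleen T cells was followed from 24 h to 48 h, gene by gene. RNA was sequenced from T cells that had been kept with partner cells named Res in the labels, and the stated aim was to find T cell genes that depend on the partner. The partner carried either a control construct (Res_ctrl) or a short hairpin RNA against Fabp7 (Res_shFabp7), and each partner was used for 24 h and for 48 h, with 3 libraries in each of the 4 groups. All cells were kept in RPMI-1640 medium with heat-inactivated serum and antibiotics. Not given in the sources used here are the strain, genotype and age of the mice, the origin of the Res cells, the control construct's content, the stimulus given to the T cells and the way they were parted from the partner. At each time, the partner effect of a gene is the log2 ratio of its level with the shFabp7 partner to its level with the control partner. The value examined here is the partner effect at 48 h minus that at 24 h, with all 12 libraries in 1 fit, and a gene is called where this difference has an adjusted p under 0.05 (edgeR quasi-likelihood test, Benjamini-Hochberg adjustment over all tested genes). It was called in 949 of 16945 tested genes, or 5.6%. These 949 genes are described below.

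T cells that respond to an antigen or a mitogen enlarge and divide, and for this they assemble ribosomes, make nucleotides, raise glucose uptake and glycolysis, and load the endoplasmic reticulum with new surface and secreted proteins. Cytokine genes and genes for homing receptors change along the same course, and the growth programme declines again as the response ages. Fabp7 encodes a fatty acid binding protein, a class of small cytosolic carriers of fatty acids, and the title of the series links these carriers to ferroptosis, a form of cell death driven by iron and oxidised lipids.

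Library totals lay between 31952873 and 40638685 counts. The labels do not say whether replicate libraries are separate cultures or mice. A p-value here therefore sets a difference against the scatter of these libraries only, and that scatter may be technical. All 17 defining T cell markers were detected and tested, and their summed level was 4690 to 5910 CPM (read counts scaled by TMM to a common library size) over the libraries. Of these 17, Thy1 and Cd28 were called, more positive at 48 h (4.43% of all tested genes). The calls held with 9 and 2 of the 12 libraries left out in turn. Of 102 markers of B cells, monocytes and macrophages, neutrophils, dendritic cells, NK cells, erythroid cells and platelets, epithelium and mesenchyme, 57 passed the filter on low counts and 1 was called, the dendritic cell marker Ccl22. Over all tested genes 5.6% were called. At an unadjusted p under 0.05, 5 of these markers were more positive and 4 more negative at 48 h, beside 19.1% of all tested genes in either direction. The summed level per library was at most 47.8 CPM for each of these lists, except the NK cell list (144 to 171 CPM) and the dendritic cell list (326 to 494 CPM). Cd209a, Retnlg, Gp1bb, Postn and Sftpc had 0 counts in all 12 libraries, which allows up to 3 counts, or 0.0713 to 0.101 CPM by library, for counting error only. Fabp7, the target of the hairpin, had 0 counts in 9 libraries, and control replicates 1, 2 and 3 at 48 h had 3, 1 and 1, so it was not tested. The hairpin acts in the partner, and T cell RNA says nothing of its efficiency there. In bulk RNA, fewer cells of a type and less RNA per cell cannot be told apart.

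The partner effect became more positive from 24 to 48 h in 750 genes (4.43% of those tested) and more negative in 199 (1.17%). The differences were small. Their median size was 0.35 on the log2 scale, and 22 genes in each direction reached a 2-fold difference. Over all tested genes the median difference was 0.04. At each time alone, 1842 genes (10.9%) had a called partner effect at 24 h and 5352 (31.6%) at 48 h. The share of called genes that were more positive was 79.0%. It depended on the scaling, the filter and the libraries, with 72.8% after RLE scaling, 61.9% with library totals, 48.9% after upper-quartile scaling and 58.6% with no filter on low counts. It was 50.5% without control replicate 2 at 24 h, 53.5 to 60.1% without any other library at 24 h and 79.3 to 83.5% without any 1 library at 48 h. Without 1 library the count of called genes was 319 at the lowest (without shFabp7 replicate 2 at 24 h) and 1680 at the highest (without control replicate 1 at 48 h). It was 342 without shFabp7 replicate 3 at 24 h and 513 to 649 without any other library. A test against a minimum fold of 1.2 called 13 genes, and this alternative is left aside in the statements on single genes below. Of the 949 genes, 199 stayed called in the same direction whichever library was left out, and the genes given below with all their library values are among these 199.

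Most differences were effects that the test called at 48 h and not at 24 h. In 502 genes (2.96% of those tested) a higher level with the shFabp7 partner was called at 48 h only, with a median partner effect of 0.04 at 24 h and 0.38 at 48 h. In 155 genes (0.915%) a lower level was called at 48 h only, and the medians were 0.07 and -0.35. An effect of 1 direction that was called at both times grew in 174 genes that were higher (1.03%, median 0.23 at 24 h and 0.56 at 48 h) and in 14 that were lower (0.0826%, median -0.29 and -0.66). A 24 h effect that was not called at 48 h, described here as fading, was found in 47 genes that had been lower (0.277%, median -0.31 and 0.08) and 21 that had been higher (0.124%, median 0.37 and -0.15). The direction reversed, with calls at both times, in 14 genes from lower to higher (0.0826%) and in 3 from higher to lower (0.0177%). Nrip1 and Phlda3 (0.0059% in each direction) kept a smaller effect of the same sign, and 17 genes had a called difference with no call at either time. A missed call at 1 time is not a partner effect of 0. Among the 502 genes the effect at 24 h was under 0.25 of that at 48 h in 287, and among the 155 in 71.

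**Figure D1:**
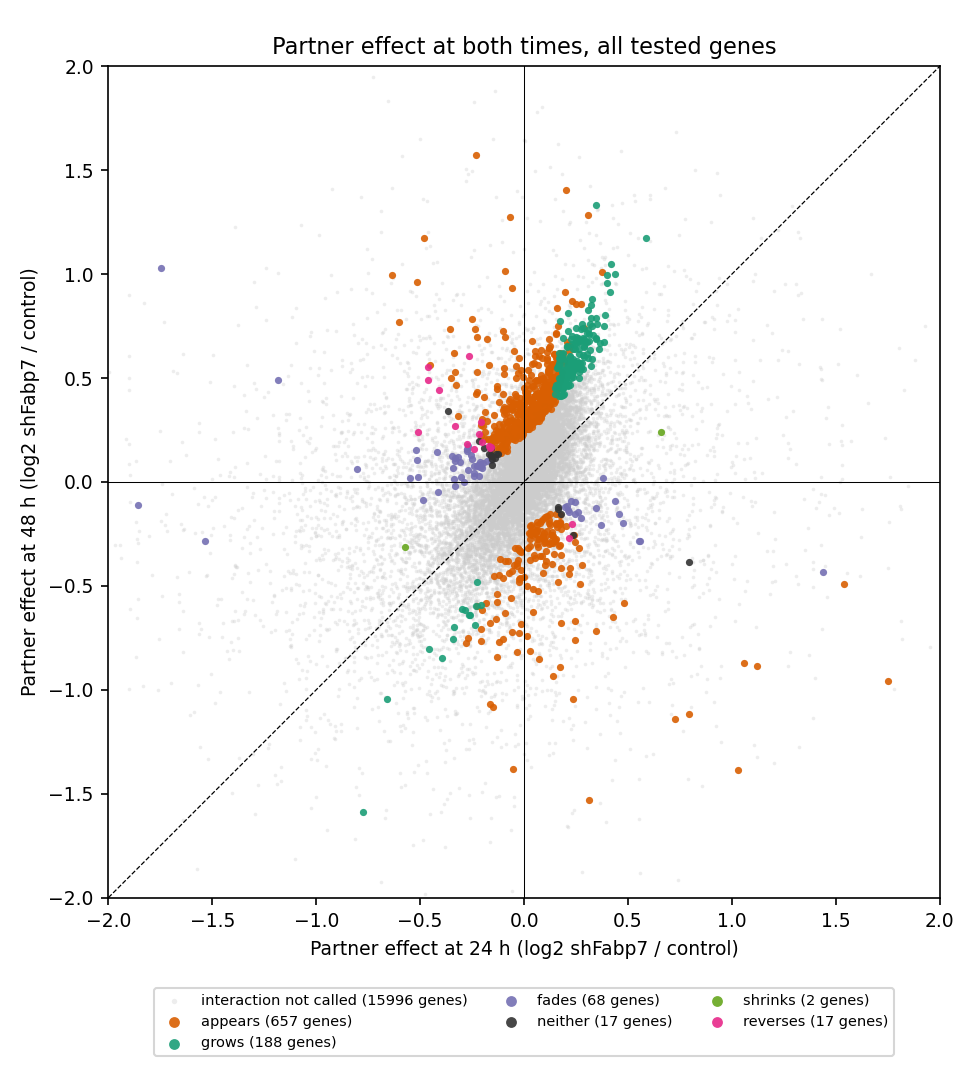
Partner effect at 24 h (horizontal axis) against that at 48 h (vertical axis), as log2 ratios of the shFabp7 to the control partner, for all tested genes, with the 949 called genes coloured by pattern. Points above the dashed diagonal had a more positive partner effect at 48 h, and the 657 genes whose effect appears form bands above and below the horizontal line, close to 0 on the 24 h axis, with 148 genes (10 of them called) beyond the axes.

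The same difference can be read as a change over time that depended on the partner. Over time alone, 67.7% of tested genes were called in the control co-cultures and 66.1% in those with shFabp7. Of the 750 genes with a more positive partner effect at 48 h, 334 (44.5%) fell from 24 to 48 h with both partners and fell less with the shFabp7 partner. A further 125 (16.7%) fell with the control partner and had no called change with the shFabp7 partner, and 24 (3.2%) fell with the first and rose with the second. In 200 (26.7%) the level rose with both partners and rose more with the shFabp7 partner, and 67 (8.93%) rose with the shFabp7 partner and were not called with the control partner. Of the 199 genes with a more negative partner effect, 53 (26.6%) rose with both partners, 51 (25.6%) fell with the shFabp7 partner only, 47 (23.6%) fell with both, 37 (18.6%) rose with the control partner only and 11 (5.53%) moved in opposite directions. "Only" here refers to the calls, and the called difference is the test between the partners.

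Genes of glucose uptake and glycolysis gained a partner effect between 24 and 48 h along nearly the whole pathway. Of 18 members, all tested, 14 were more positive at 48 h (4.43% of all tested genes). Of these, 10 had a higher level called at 48 h only, 2 grew and 2, Slc16a3 among them, reversed from lower to higher. Over all tested genes these shares were 2.96%, 1.03% and 0.0826%. The median partner effect of the list was 0.06 at 24 h and 0.34 at 48 h. At 24 h 2 members were higher and 2 lower with the shFabp7 partner (6.22% and 4.65% of all tested genes), and at 48 h 17 were higher (19.9% of all tested genes). Levels of most members rose with time with both partners, by a median log2 of 0.22 (control) and 0.53 (shFabp7; 16 members rose with this partner, against 35.9% of all tested genes). Of the 14 calls, 8 held whichever library was left out. The count was 9 without control replicate 2, shFabp7 replicate 1 or shFabp7 replicate 2 at 24 h, and 8 without shFabp7 replicate 3 at 24 h. It was 10 to 15 over the other fits with all libraries (scalings, tests, filters, replicate block, length and GC removal, no minimum fold).

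Slc16a3, the lactate exporter MCT4, had the largest change of the pathway and reversed. Its level was 16.1, 18.4 and 18.2 CPM with the control partner at 24 h and 13.4, 11.6 and 13.2 CPM with the shFabp7 partner (replicates 1, 2 and 3, here and below). At 48 h it was 98.4, 80.7 and 79.2 CPM with the control and 121, 126 and 132 CPM with the shFabp7 partner. All shFabp7 libraries were thus below the control libraries at 24 h and above them at 48 h. The partner effect of Slc16a3 was -0.46 ± 0.09 (SE) at 24 h and 0.55 ± 0.07 at 48 h, a difference of 1.02 ± 0.11 (adjusted p = 2.28e-06). In pathway order, the difference was 0.41 ± 0.08 for Slc2a1 and 0.37 ± 0.07 for Slc2a3, the glucose transporters GLUT1 and GLUT3. It was 0.42 ± 0.08 for Hk1 and 0.42 ± 0.09 for Hk2, the hexokinases that trap glucose in the cell. Pfkl, the liver-type subunit of phosphofructokinase, had 0.49 ± 0.08 (adjusted p = 0.000539), and its level was 122 ± 14.3 against 179 ± 5.67 CPM at 48 h (mean ± SD, n = 3). Eno1, the enolase of the lower pathway, was 603, 631 and 601 CPM with the control and 608, 587 and 594 CPM beside the shFabp7 partner at 24 h. At 48 h Eno1 was 900, 883 and 815 against 1127, 1157 and 1175 CPM, so groups that overlapped at 24 h had parted (difference 0.45 ± 0.07, adjusted p = 0.000319). The mutase Pgam1, which precedes enolase, had a called effect at both times, 0.19 ± 0.06 and 0.62 ± 0.06. The calls of Pfkp, Aldoa, Tpi1, Gapdh, Pgk1 and Ldha, with differences between 0.26 and 0.36, held with 9, 3, 8, 1, 7 and 5 of the 12 libraries left out in turn, and the highest adjusted p was 0.261, for Gapdh without shFabp7 replicate 2 at 24 h. Gpi1, Pfkm, Pkm and the lactate transporter Slc16a1 had differences of 0.14 ± 0.07, 0.25 ± 0.10, 0.23 ± 0.07 and 0.17 ± 0.08, which missed the threshold.

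**Figure D2:**
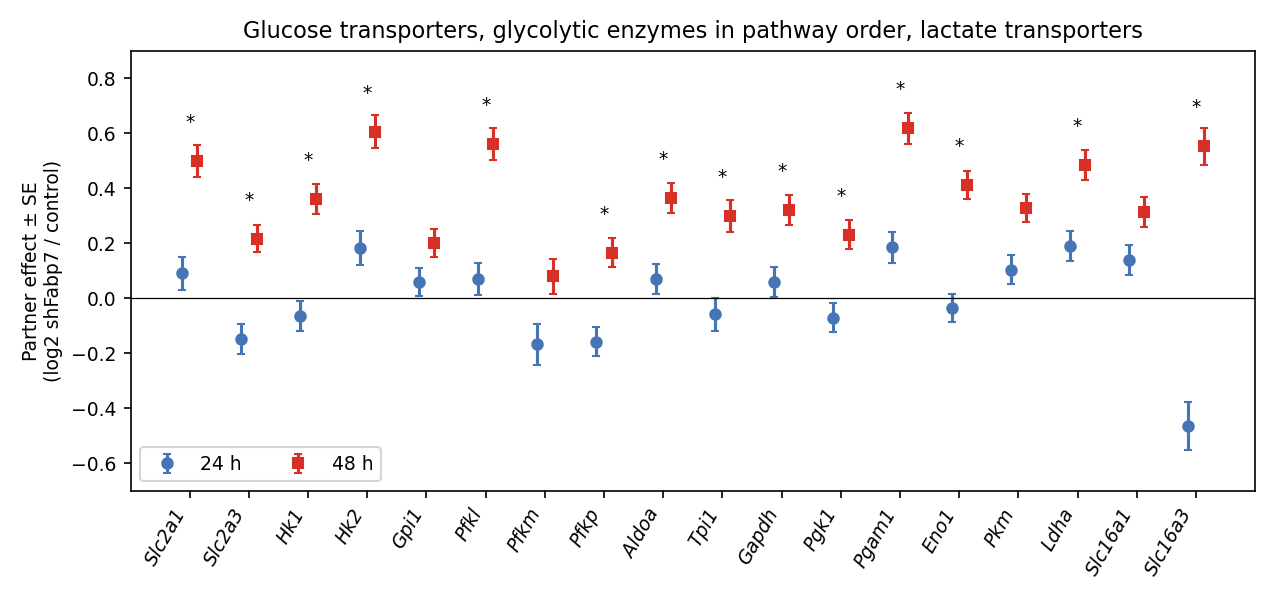
Partner effect (log2 shFabp7 over control, ± SE) at 24 h (circles) and 48 h (squares) for glucose transporters, glycolytic enzymes in pathway order and lactate transporters, with an asterisk where the difference between the times was called. The 48 h value lies above the 24 h value in all 18 genes, and Slc16a3 at the right end moves from -0.46 to 0.55.

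The hypoxia response list, which holds targets of hypoxia-inducible factors, had 4 of 18 members more positive (4.43% of all tested genes). The median difference of the list was 0.19. Egln3, an oxygen-sensing prolyl hydroxylase, was 34.8, 35.8 and 32.6 against 36.8, 37.1 and 34.6 CPM at 24 h and 92.6, 82.8 and 80.8 against 125, 130 and 135 CPM at 48 h. Its effect went from 0.07 ± 0.06 to 0.60 ± 0.06 (difference 0.53 ± 0.08, adjusted p = 0.000305). Ero1a, an oxidase of the endoplasmic reticulum, had effects of -0.04 ± 0.05 and 0.37 ± 0.05. Bnip3, which marks mitochondria for removal, did the reverse of an appearing effect. It was 11.4, 12.3 and 11 CPM with the control and 7.75, 8.48 and 8.05 CPM beside the shFabp7 partner at 24 h, with no overlap. At 48 h it was 34.1, 29.5 and 30.6 against 31.8, 35.8 and 33.9 CPM and the groups overlapped. The partner effect of Bnip3 was -0.51 ± 0.09 at 24 h and 0.11 ± 0.07 at 48 h (difference 0.62 ± 0.12, adjusted p = 0.0012).

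Promoters of these genes were searched because the members moved together. The core of the hypoxia response element, ACGTG on either strand, was in the window from 250 bases before to 50 bases after the annotated start of 12 of 17 glycolysis genes with a RefSeq promoter, against 28.8% of 11315 tested genes with one (RefSeq sequences, build GRCm38.p6). Of the 12 with a match 9 were called, and of the 5 without it 4 were called. With so few uncalled genes, these counts cannot tell whether the letters sort called genes from the others. Stretches around a match (capitals) are printed 5′ to 3′ on the strand of the gene for the reversing Slc16a3 (chr11:120949015-120949066, plus strand), the fading Bnip3 (chr7:138909585-138909639, minus strand), and Slc2a1 (chr4:119108684-119108738, plus strand) and Pgam1 (chr19:41911732-41911786, plus strand), whose effects appeared and grew. Capitals mark the first match only, and the Slc16a3 stretch holds a further ACGTG in lower case. The E-box CACGTG contains this core, and the Bnip3 stretch holds a full E-box, with its last G in lower case. A match is a description of the letters and no evidence of binding.
Slc16a3: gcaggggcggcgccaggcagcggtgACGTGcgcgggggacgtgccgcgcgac
Bnip3: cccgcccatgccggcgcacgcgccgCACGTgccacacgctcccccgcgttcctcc
Slc2a1: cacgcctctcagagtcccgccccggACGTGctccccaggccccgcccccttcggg
Pgam1: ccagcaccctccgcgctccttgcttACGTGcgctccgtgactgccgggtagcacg

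Chaperones and folding enzymes of the endoplasmic reticulum were nearly level between the partners at 24 h and higher with the shFabp7 partner at 48 h. Of 19 members, all tested, 12 were more positive at 48 h (4.43% of all tested genes). Of these calls 10 held whichever library was left out. Over the other fits with all libraries, the minimum fold aside, 11 to 14 members were more positive. The median partner effect was 0.06 at 24 h and 0.39 at 48 h, and 11 of the 12 had a called effect at 48 h only. With the control partner the median change over time was -0.42, and with the shFabp7 partner it was -0.18. Calr, a calcium-binding chaperone of glycoproteins, was 1062, 1158 and 1125 CPM with the control and 1206, 1162 and 1173 CPM beside the shFabp7 partner at 24 h. At 48 h it was 561, 497 and 499 against 782, 808 and 823 CPM, and the groups did not overlap at either time. The level of Calr thus fell with both partners and fell less with the shFabp7 partner, and its effect went from 0.08 ± 0.05 to 0.63 ± 0.05 (difference 0.55 ± 0.08, adjusted p = 4.84e-05). Manf, a secreted protein of the stress response of this organelle, was 144, 141 and 131 against 151, 146 and 145 CPM at 24 h and 107, 104 and 103 against 158, 158 and 159 CPM at 48 h. Over time Manf fell with the control partner (log2 -0.40) and had no called change with the shFabp7 partner (0.11). Sdf2l1, a cofactor of the chaperone Hspa5, had no called change over time with the control partner (55.7 ± 4.64 and 55.7 ± 1.12 CPM, mean ± SD) and rose with the shFabp7 partner from 60.4 ± 1.44 to 87.0 ± 2.61 CPM. Hspa5, Hsp90b1, Hyou1, Pdia3, Pdia6, Dnajb11 and Creld2 had differences between 0.34 and 0.51. Members that were not called included Xbp1 (0.11 ± 0.07), Herpud1 (0.09 ± 0.10) and Dnajb9 (0.12 ± 0.13). The calls of Pdia4 (adjusted p = 0.074 without shFabp7 replicate 2 at 24 h) and of Edem1 under 9 of the alternatives were lost.

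The promoters of this list are known for the endoplasmic reticulum stress response element, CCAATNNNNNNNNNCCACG, searched here on both strands. It was found in 8 of 17 members with a RefSeq promoter and in 0.168% of all 11315. Of the 8 members with the element 5 were called, and of the 9 without it 5 were called. For 4 called members the element (capitals) is printed with 25 bases on each side, 5′ to 3′ on the strand of the gene, at chr2:34772000-34772068 (Hspa5, plus strand), chr10:86705613-86705681 (Hsp90b1, minus strand), chr12:17266466-17266534 (Pdia6, plus strand) and chr15:88819495-88819563 (Creld2, plus strand, element on the opposite strand), all in GRCm38.p6.
Hspa5: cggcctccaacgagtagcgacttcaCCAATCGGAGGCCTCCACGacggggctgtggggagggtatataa
Hsp90b1: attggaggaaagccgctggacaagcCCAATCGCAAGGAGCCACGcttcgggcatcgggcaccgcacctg
Pdia6: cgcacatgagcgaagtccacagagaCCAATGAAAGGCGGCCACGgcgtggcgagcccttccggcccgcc
Creld2: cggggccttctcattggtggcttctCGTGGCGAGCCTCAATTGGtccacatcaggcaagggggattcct

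Ribosome assembly factors differed from the folding genes in that the shFabp7 partner was already higher at 24 h. Of 26 members, 20 had a called higher level at 24 h and 25 at 48 h (6.22% and 19.9% of all tested genes), and 19 had a larger effect at 48 h (4.43% of all tested genes). The median partner effect was 0.23 and 0.60. Every member fell over time with each partner, with median log2 changes of -1.34 (control) and -1.03 (shFabp7). Nolc1, a nucleolar chaperone of small RNA-protein particles, was 421, 460 and 431 against 559, 509 and 516 CPM at 24 h and 209, 190 and 173 against 315, 320 and 320 CPM at 48 h. Groups did not overlap at either time, and the effect of Nolc1 grew from 0.27 ± 0.06 to 0.74 ± 0.06 (difference 0.46 ± 0.08, adjusted p = 0.000634). Grwd1, a histone-binding factor also needed for ribosome assembly and named here as one of the smallest p-values among growing effects, was 87.5, 96.8 and 95.5 against 129, 121 and 125 CPM at 24 h and 17.3, 15.4 and 13.7 against 32.2, 30.4 and 33.1 CPM at 48 h (difference 0.63 ± 0.09, adjusted p = 0.000136). Utp20 and Bop1, which process small and large subunit precursors, had differences of 0.60 ± 0.09 and 0.47 ± 0.08. Npm1, the abundant nucleolar protein nucleophosmin, had effects of 0.20 ± 0.07 and 0.15 ± 0.07 and was not called for the difference (-0.05 ± 0.10). Of the 19 calls 7 held whichever library was left out. The count of calls was 7 without control replicate 2, 11 without control replicate 3, and 11, 8 and 8 without shFabp7 replicates 1, 2 and 3 at 24 h. It was 12 without control replicate 3 and without shFabp7 replicate 1 or 2 at 48 h. Over the other fits with all libraries, the minimum fold aside, it was 11 to 21.

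Other lists of the growth programme held more calls of a more positive effect than of a more negative one. Over all tested genes 4.43% were more positive and 1.17% more negative. In purine and pyrimidine synthesis 8 of 17 members were more positive at 48 h (median difference 0.26). Gart, a trifunctional enzyme of purine synthesis, had effects of 0.19 ± 0.05 and 0.69 ± 0.05, and Atic, which closes the purine ring, 0.14 ± 0.05 and 0.56 ± 0.05. In the pentose phosphate and antioxidant list 7 of 18 members were more positive (median 0.27), among them G6pdx and Pgd, the dehydrogenases that make NADPH (0.42 ± 0.08 and 0.47 ± 0.08), and Txnrd1, thioredoxin reductase (0.46 ± 0.08). In the heat shock and chaperonin list 7 of 21 were more positive and Hspa1a, the inducible HSP70, was more negative (-1.08 ± 0.33). The call of Hspa1a held with 2 of the 12 libraries left out in turn, and neither DESeq2 nor limma-voom made it. Hsph1, a cytosolic HSP110 chaperone, was 337, 361 and 351 against 404, 389 and 389 CPM at 24 h and 122, 104 and 107 against 190, 188 and 191 CPM at 48 h. The effect of Hsph1 grew from 0.17 ± 0.05 to 0.77 ± 0.05 (difference 0.60 ± 0.08, adjusted p = 1.68e-05), and that of the mitochondrial chaperonin Hspd1 from 0.23 ± 0.05 to 0.66 ± 0.05. Proteasome subunits were more positive in 10 of 26 (median difference 0.19), and all 10 but Psmb2 were subunits of the regulatory cap (Psmc and Psmd genes). Translation factors were more positive in 7 of 23 (median 0.21), led by Eif4g2, Eif4g1 and Eif3b (0.43 ± 0.07, 0.45 ± 0.08 and 0.41 ± 0.08). Aminoacyl-tRNA synthetases were more positive in 4 of 20 (median 0.21), and none of these 4 calls held whichever library was left out. These counts depended on the processing and on single libraries. Over the other fits with all libraries, the minimum fold aside, more positive members numbered 6 to 8 in purine and pyrimidine synthesis and 3 to 8 in the pentose phosphate list. They numbered 7 to 9 in the heat shock list, 4 to 13 among proteasome subunits, 3 to 8 among translation factors and 3 to 7 among synthetases. With each library left out in turn, the calls that held every time were 4 of 8 in purine and pyrimidine synthesis, 3 of 7 in the pentose phosphate and antioxidant list, 2 of 8 in the heat shock and chaperonin list, 2 of 10 among proteasome subunits and 3 of 7 among translation factors. Without shFabp7 replicate 2 at 24 h, more positive members numbered 5, 3, 2, 2 and 3 in the order of these lists, without shFabp7 replicate 3 at 24 h 4, 3, 3, 2 and 3, and without control replicate 2 at 24 h 4, 3, 4, 2 and 3. Without shFabp7 replicate 1 or control replicate 3 at 24 h they numbered 3 in the pentose phosphate list, 4 among proteasome subunits and 3 among translation factors, and without control replicate 1 at 24 h 5 among proteasome subunits. At 48 h the proteasome count was 4 without control replicate 3, 6 without shFabp7 replicate 1 or 2 and 5 without shFabp7 replicate 3, the pentose phosphate count was 4, 4 and 3 without control replicate 3 and shFabp7 replicates 2 and 3, and the translation factor count was 4 without shFabp7 replicate 3. In polyamine synthesis Srm, spermidine synthase, grew from 0.44 ± 0.07 to 1.00 ± 0.07.

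**Figure D3:**
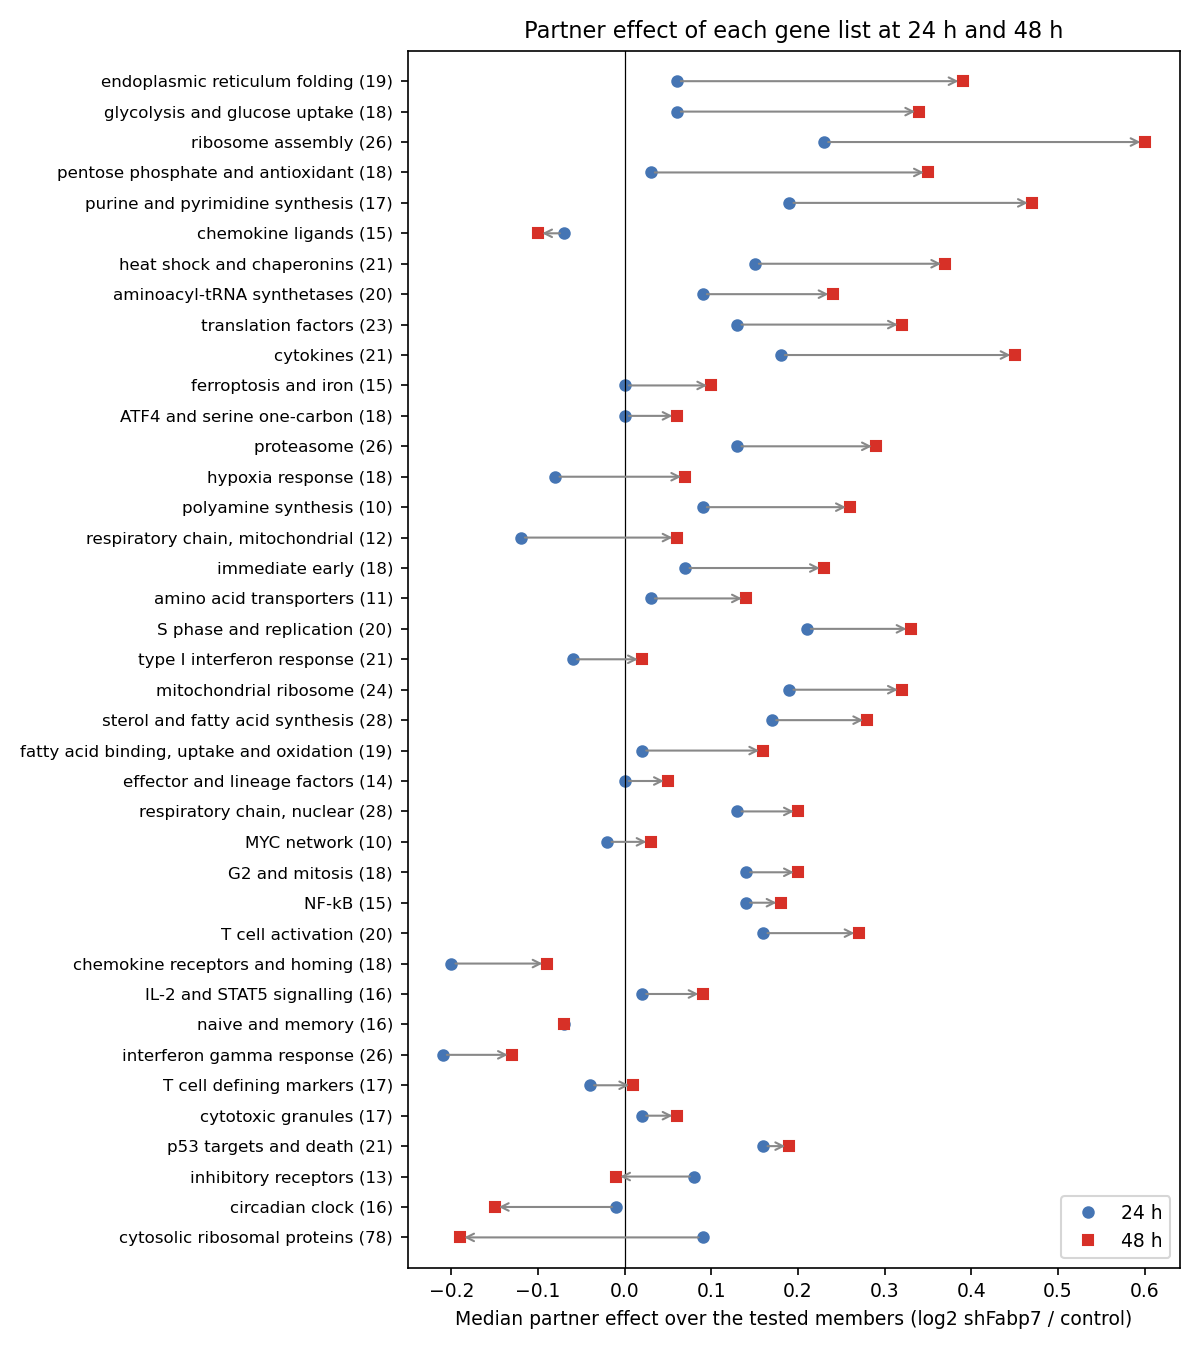
Median partner effect (log2 shFabp7 over control) over the tested members of 38 gene lists plus the T cell markers at 24 h (circles) and 48 h (squares), with arrows from 24 to 48 h and the number of tested members in brackets, ordered by the median of the members' own differences. Folding, glycolysis and ribosome assembly lie at the top with 48 h medians of 0.39, 0.34 and 0.60, and cytosolic ribosomal proteins at the bottom move from 0.09 to -0.19.

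Genes of the cytosolic ribosomal proteins moved against the factors that assemble them. Of 78 members, 37 were more negative at 48 h (1.17% of all tested genes). The median partner effect of the list was 0.09 at 24 h and -0.19 at 48 h. At 48 h 47 members were lower with the shFabp7 partner, where 11.6% of all tested genes were lower. Over time 74 members fell in the shFabp7 co-cultures and 49 in the control ones (30.2% and 32% of all tested genes fell). Rps18, a protein of the small subunit, was 1456, 1472 and 1230 CPM with the control and 1432, 1609 and 1507 CPM beside the shFabp7 partner at 24 h, with overlap. At 48 h it was 1179, 1322 and 1318 against 1036, 1056 and 1028 CPM, without overlap. The effect of Rps18 went from 0.13 ± 0.06 to -0.29 ± 0.06 (difference -0.42 ± 0.09, adjusted p = 0.00341). Rpl32 and Rpl38 had differences of -0.36 ± 0.08 and -0.38 ± 0.08, and Rps2 had a positive difference (0.05 ± 0.08) that was not called. The median difference of the list was between -0.38 and -0.23 under every scaling, test and library left out, while the number of calls moved. It was 12 without control replicate 2 or 3, and 14, 21 and 13 without shFabp7 replicates 1, 2 and 3 at 48 h, 20 without shFabp7 replicate 2 at 24 h, and 58 without control replicate 2 at 24 h or replicate 1 at 48 h. Of the 37 calls, 9 held whichever library was left out. Messages of these genes are short, with a median of 925.5 bases against 2736 over all tested genes. Over all genes the median difference ran from -0.07 at 500 to 1000 bases to 0.09 above 8000 bases. With trends of level over length and GC content removed in each library, 44 of the 78 were more negative and the median was -0.23. Many of these genes have near-identical pseudogenes, so reads may have been split between copies.

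Messages of ribosomal proteins usually begin with a C followed by a run of pyrimidines, the terminal oligopyrimidine motif through which their translation is controlled. A C within 3 bases of the annotated start followed by at least 4 bases C or T was found in 24 of 57 members with a RefSeq promoter (42.1%) and in 15.1% of all 11315 genes with one. Of the 24 with such a start 12 were called, and of the 33 without it 13. The start is shown (capitals, with flanking bases, 5′ to 3′ on the strand of the gene, GRCm38.p6) for Rps18 (chr17:33955646-33955675, minus strand), Rpl38 (chr11:114668570-114668599, plus strand) and Rps27 (chr3:90213629-90213658, minus strand), 3 of the 9 members whose call held throughout.
Rps18: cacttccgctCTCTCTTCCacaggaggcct
Rpl38: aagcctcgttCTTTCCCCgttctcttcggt
Rps27: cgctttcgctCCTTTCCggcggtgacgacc

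**Figure D4:**
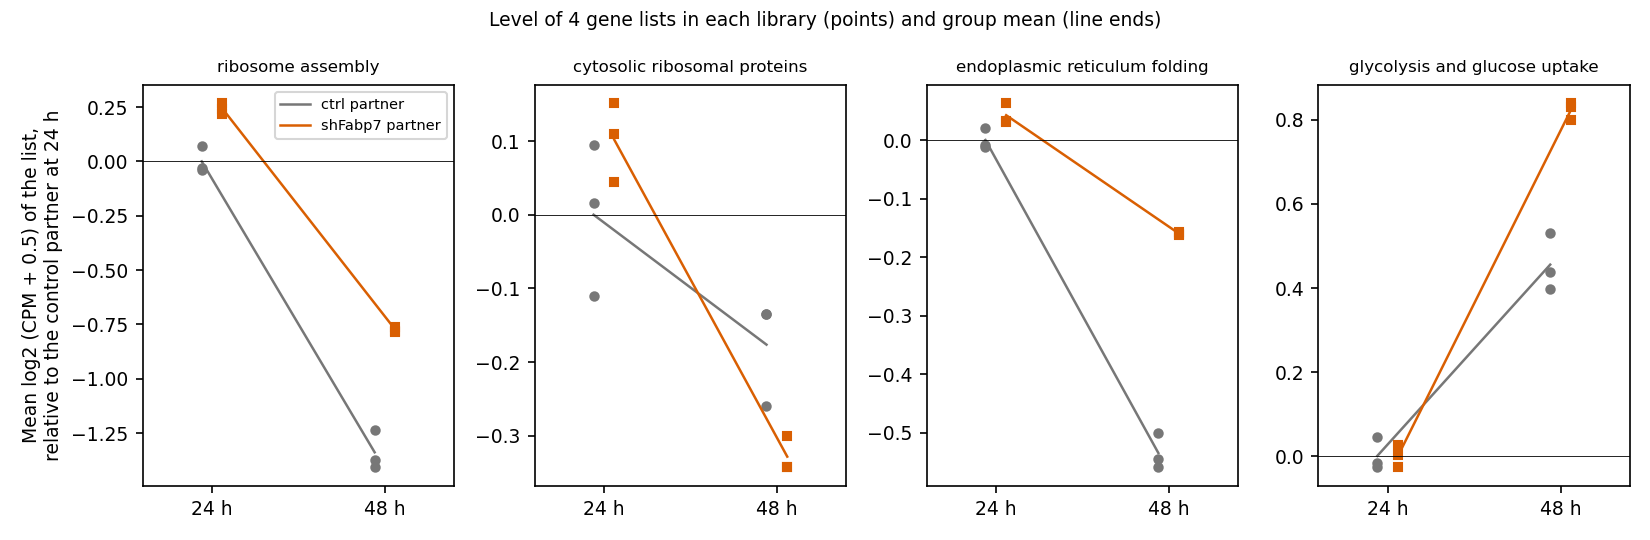
Mean log2 (CPM + 0.5) of 4 gene lists in each library relative to the mean of the control partner at 24 h, with points for libraries and lines joining group means at 24 h and 48 h (grey, control partner, orange, shFabp7 partner, n = 3 each). Ribosome assembly falls less with the shFabp7 partner (-0.78 against -1.34), cytosolic ribosomal proteins cross, and glycolysis rises to 0.82 against 0.46.

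Among cell surface and secreted proteins, Selp, P-selectin, was 4.92, 3.19 and 4.95 CPM with the control and 3.40, 3.29 and 4.36 CPM beside the shFabp7 partner at 24 h, with overlap. At 48 h Selp was 12.6, 10.4 and 11.4 against 34.6, 32.2 and 35.6 CPM. The effect of Selp went from -0.23 ± 0.15 to 1.57 ± 0.10 (difference 1.8 ± 0.18, adjusted p = 4.67e-07). P-selectin is best known from platelets and endothelium, and in the platelet and erythroid list 4 of 12 markers were tested, none of them called by edgeR, DESeq2 or limma-voom. Pf4 and Ppbp, platelet chemokines, had an unadjusted p under 0.05 (19.1% of all tested genes), and both were more positive, the direction of Selp. The other tested markers of this list had negative differences, none with an unadjusted p under 0.05. At 24 h Pf4 was 1.89 ± 0.177 CPM with the control and 1.19 ± 0.138 CPM beside shFabp7 cells, with a difference of 0.62 ± 0.30 (adjusted p = 0.257). Ppbp was 0.133 ± 0.107 and 0.01 ± 0.0173 CPM at 24 h, too few counts for a fold. The summed level of that list was 10.4 to 11.7 and 8.78 to 10.1 CPM at 24 h and 14.1 to 19.2 and 12.1 to 14.1 CPM at 48 h in the order control, shFabp7. At 48 h Pf4 was 2.56 ± 0.379 with the control and 2.46 ± 0.524 CPM with the shFabp7 partner, Ppbp was 0.579 ± 0.248 and 0.487 ± 0.175 CPM, and Gp1bb had 0 counts throughout. The part of platelet RNA in the Selp result was not tested.

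Il12rb2, the signalling chain of the IL-12 receptor found on Th1 cells, had the smallest adjusted p of all genes named here. It was 33.8, 32.3 and 34.6 against 32.2, 30.2 and 32.2 CPM at 24 h and 164, 165 and 161 against 274, 255 and 266 CPM at 48 h. The effect of Il12rb2 went from -0.09 ± 0.06 to 0.70 ± 0.05 (difference 0.79 ± 0.07, adjusted p = 6.81e-08). Penk, the precursor of enkephalin peptides, was 13.1, 17.9 and 17.8 against 19.1, 21.4 and 21.6 CPM at 24 h and 35.5, 31.9 and 35.7 against 80.9, 85.1 and 93.4 CPM at 48 h (difference 0.98 ± 0.12, adjusted p = 4.84e-05). Inhba, a subunit of activin, was 2.98, 2.72 and 2.96 against 3.56, 3.12 and 3.28 CPM at 24 h and 3.57, 3.47 and 3.98 against 11.4, 8.20 and 9.59 CPM at 48 h (difference 1.21 ± 0.21, adjusted p = 0.000568). Vim, the intermediate filament vimentin, was level at 24 h (105 ± 6.6 and 103 ± 7.11 CPM) and apart at 48 h (202 ± 6.14 and 290 ± 5.03 CPM). The lists of epithelial and mesenchymal markers had no called member by edgeR, DESeq2 or limma-voom. At an unadjusted p under 0.05 there were 1 of 5 and 0 of 8 tested members, beside 19.1% of all tested genes. Summed levels were 6.7 to 13.2 and 16 to 47.8 CPM.

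**Figure D5:**
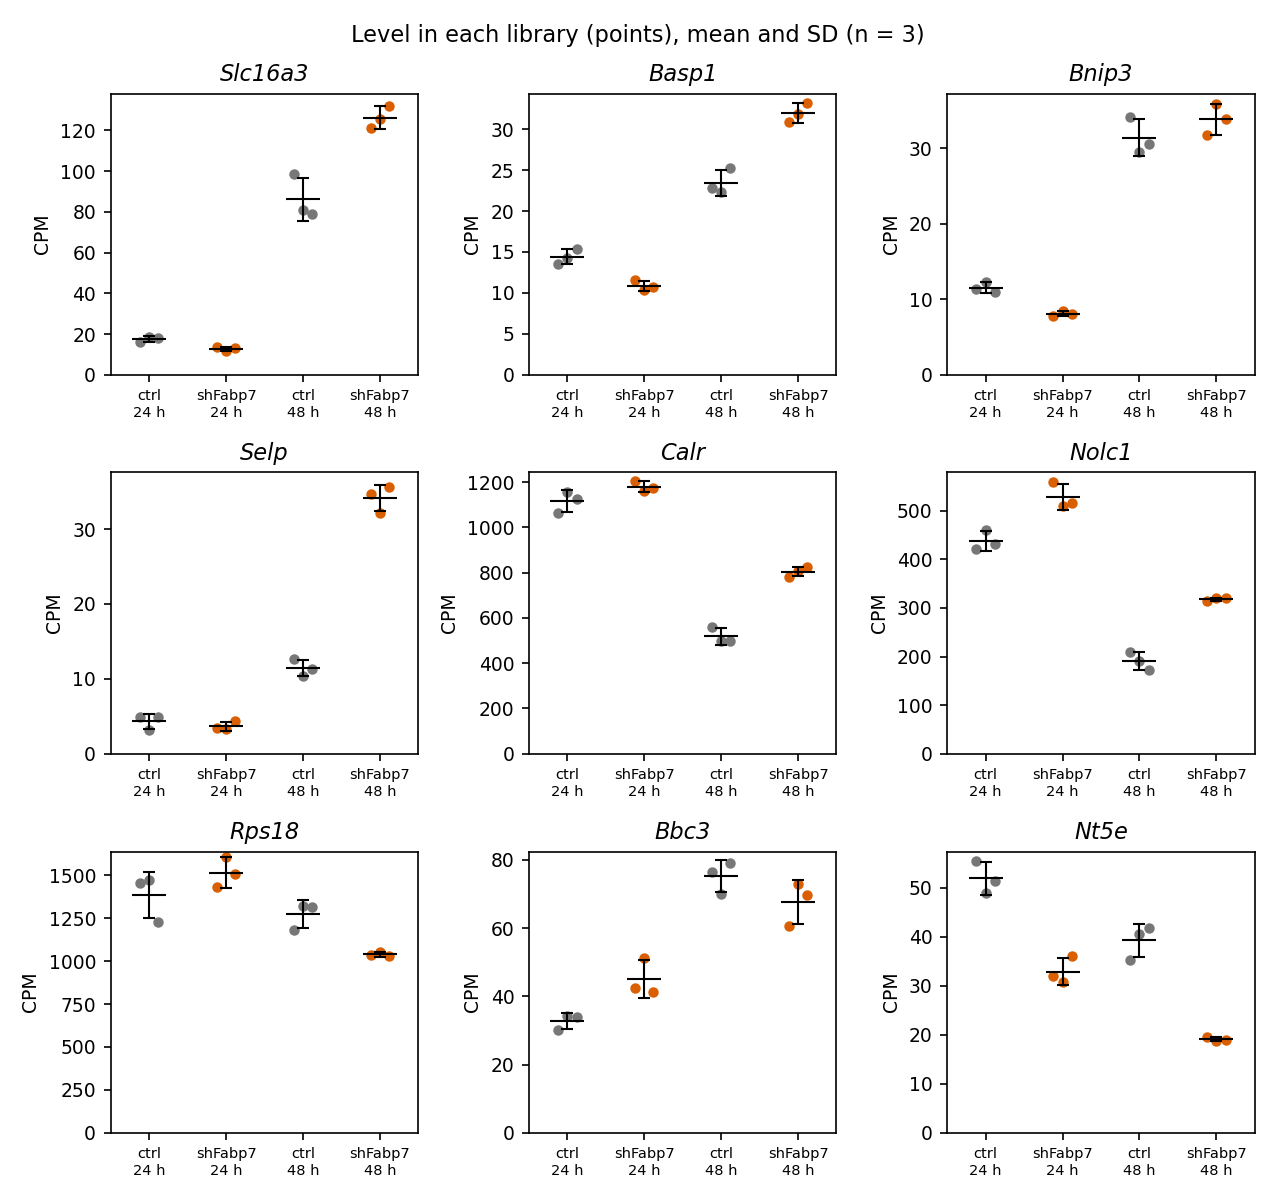
CPM of 9 genes in each library (points, grey for the control and orange for the shFabp7 partner) with the group mean and SD (n = 3), on axes that start at 0. Slc16a3 and Basp1 change order between the times, and Bnip3 and Bbc3 differ at 24 h and overlap at 48 h. Selp and Rps18 overlap at 24 h and part at 48 h, and Calr is further apart at 48 h than at 24 h.

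Among 21 cytokine genes 4 were more positive at 48 h, beside 4.43% of all tested genes. The median difference of the list was 0.21. Il13, a type 2 cytokine, was 92.2, 108 and 85.9 against 120, 125 and 118 CPM at 24 h and 124, 112 and 119 against 198, 203 and 211 CPM at 48 h. Its effect grew from 0.34 ± 0.06 to 0.79 ± 0.06 (difference 0.45 ± 0.09, adjusted p = 0.00214). The calls of Il3, Lif and Lta, the others, held with 5, 2 and 1 of the 12 libraries left out in turn. Ifng, the type 1 cytokine interferon gamma, had a called effect at both times (0.55 ± 0.07 and 0.78 ± 0.07) with a difference of 0.23 ± 0.10 that was not called (adjusted p = 0.218). Il10 was 0.53 ± 0.09 and 0.51 ± 0.10 (adjusted p = 0.961 for the difference). Of 15 chemokine ligands Ccl3, Ccl4, Ccl9 and Ccl22 were more positive and Xcl1 and Cxcl9 more negative (4.43% and 1.17% of all tested genes). Of these 6 calls that of Ccl3 held whichever library was left out. Ccl3, a chemokine that attracts inflammatory cells, was 102, 129 and 117 against 153, 159 and 153 CPM at 24 h and 97.4, 84.5 and 86.3 against 166, 165 and 173 CPM at 48 h (effects 0.41 ± 0.06 and 0.91 ± 0.06, difference 0.50 ± 0.09, adjusted p = 0.000977). Ccl22, made by dendritic cells and by activated T cells, was lower at 24 h (-0.55 ± 0.09) and level at 48 h (0.02 ± 0.09). Its call was lost without control replicate 2 or shFabp7 replicates 2 or 3 at 24 h, and without replicate 3 of either partner at 48 h (adjusted p 0.0514 to 0.113). The summed dendritic cell list, which contains Ccl22, went from 443 ± 46.2 against 342 ± 22.1 CPM to 382 ± 29.8 against 355 ± 19 CPM. This sum is therefore no separate measure of these cells. Over the 9 tested members the median partner effect was -0.24 at 24 h and -0.07 at 48 h, and the median difference was 0.08. At an unadjusted p under 0.05, 1 member was more positive and 1 more negative, beside 19.1% of all tested genes in either direction. The part of dendritic cells in the Ccl22 result was not tested.

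Among chemokine receptors, Ccr9, a receptor for homing to the small intestine, was 13, 11.5 and 11.6 against 6.25, 6.27 and 8.47 CPM at 24 h and 30.6, 35.3 and 32.3 against 10.7, 11.3 and 10.7 CPM at 48 h. The lower level of Ccr9 with the shFabp7 partner deepened from -0.77 ± 0.10 to -1.59 ± 0.09 (difference -0.81 ± 0.14, adjusted p = 0.000568). Ccr4, a receptor for Ccl22, had effects of 0.06 ± 0.06 and 0.42 ± 0.06, and its call was lost without shFabp7 replicate 3 at 24 h (adjusted p = 0.0827).

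Regulators of activation moved in both directions. Irf4, which scales the effector response to the strength of the T cell signal, had effects of 0.01 ± 0.06 and 0.42 ± 0.06 (difference 0.41 ± 0.08, adjusted p = 0.00249) as its level fell from 1124 to 542 CPM with the control and from 1132 to 726 CPM with the shFabp7 partner. Serpinb9, an inhibitor that shields killer cells from granzyme B, was 118 ± 7.65 and 120 ± 7.28 CPM at 24 h and 235 ± 5.9 and 330 ± 4.79 CPM at 48 h. Plk1, a mitotic kinase, was 4.95, 4.47 and 5.32 against 4.58, 4.63 and 5.02 CPM at 24 h and 56.7, 53.4 and 47.2 against 80.2, 79.1 and 84.1 CPM at 48 h. Plk1 and Aurka were the called members among 18 genes of G2 and mitosis, beside 5.6% of all tested genes. The median difference of this list was 0.07, and the call of Aurka held with 2 of the 12 libraries left out in turn. Among 13 inhibitory receptors 4 were called, beside 5.6% of all tested genes, with 2 in each direction. Tigit and Entpd1, an inhibitory receptor and the ectoenzyme CD39, were more positive (0.26 ± 0.08 and 0.37 ± 0.11), and each call held with 1 of the 12 libraries left out in turn. Vsir, the checkpoint receptor VISTA, had effects of 0.08 ± 0.05 and -0.24 ± 0.05 (difference -0.32 ± 0.07, adjusted p = 0.00391), a call that held whichever library was left out. Nt5e, the ectoenzyme CD73 that makes adenosine, was lower at both times (-0.66 ± 0.07 and -1.04 ± 0.07), and its difference of -0.38 ± 0.10 missed the threshold when shFabp7 replicate 3 at 24 h, or replicate 2 or 3 of either partner at 48 h, was left out (adjusted p 0.0541 to 0.0723). Ptpn18, a phosphatase, and Lemd2, a protein of the nuclear envelope, were the smallest p-values among effects that appear as lower levels (-0.50 ± 0.08 and -0.49 ± 0.08).

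Genes of p53 response and cell death gave 4 calls among 21, all more negative at 48 h (1.17% of all tested genes). The median difference of the list was -0.04. Bbc3, the death-promoting BH3 protein PUMA, was 30.1, 34.2 and 34.0 CPM with the control and 42.5, 51.4 and 41.3 CPM beside the shFabp7 partner at 24 h, with no overlap. At 48 h Bbc3 was 76.5, 70.0 and 79.2 against 60.5, 72.8 and 69.8 CPM, with overlap. Its higher level at 24 h (0.46 ± 0.08) was not called at 48 h (-0.15 ± 0.08), and the difference was -0.61 ± 0.11 (adjusted p = 0.00167). Bcl2l11, the BH3 protein BIM, had effects of 0.09 ± 0.06 and -0.26 ± 0.06 (difference -0.35 ± 0.08, adjusted p = 0.00854). Sesn1, a sestrin that restrains growth signalling, was lower at both times (-0.23 ± 0.06 and -0.60 ± 0.06). Phlda3, an inhibitor of AKT induced by p53, kept a smaller effect (0.66 ± 0.09 and 0.24 ± 0.08), a call that held with 5 of the 12 libraries left out in turn. Cdkn1a, the p53-induced inhibitor of the cell cycle, was 0.47 ± 0.08 and 0.45 ± 0.08, with an adjusted p of 0.957 for the difference.

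Fading effects were fewer and less stable, since 6 of 68 held whichever library was left out. Hic1, a transcriptional repressor, was 18.5, 19 and 17.1 against 14.2, 12.2 and 12 CPM at 24 h and 82.8, 72.0 and 67.0 against 69.5, 75.5 and 80.2 CPM at 48 h. Hic1 rose with both partners, and groups apart at 24 h overlapped at 48 h (difference 0.53 ± 0.11, adjusted p = 0.00414). Anxa2, a membrane-binding annexin, went from -0.34 ± 0.06 to 0.12 ± 0.06. Tnfsf14, the ligand LIGHT, was 35.3, 39.3 and 35.1 against 46.0, 50.3 and 46.7 CPM at 24 h and 29.6, 30.5 and 30.6 against 30.2, 29.9 and 31.8 CPM at 48 h (difference -0.36 ± 0.09, adjusted p = 0.0132).

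Beside Slc16a3, reversals from lower to higher with small p-values included Basp1 and Apol7c. Basp1, a membrane-bound signalling protein, was 13.6, 14.3 and 15.4 against 11.5, 10.4 and 10.7 CPM at 24 h and 22.8, 22.3 and 25.3 against 30.8, 31.8 and 33.2 CPM at 48 h (effects -0.41 ± 0.08 and 0.44 ± 0.07). The difference of Basp1 was 0.85 ± 0.11 (adjusted p = 3.01e-05). Apol7c, an apolipoprotein L, had effects of -0.26 ± 0.08 and 0.60 ± 0.11 while its level dropped from 62.3 ± 1.67 to 6.41 ± 1.31 CPM with the control partner. Snhg16, a host gene of small nucleolar RNAs, reversed the other way. It was 35.0, 35.7 and 32.6 against 37.2, 43.5 and 39.5 CPM at 24 h and 49.9, 54.3 and 52.2 against 41.5, 42.3 and 45.7 CPM at 48 h (difference -0.49 ± 0.09, adjusted p = 0.00112). Rpl34-ps1, which is annotated as a pseudogene and may hold reads of Rpl34, had effects of 0.23 ± 0.06 and -0.20 ± 0.06.

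Of the 44 differences of at least 2-fold, 12 were in genes with a mean under 1 CPM in every group, and these ran from -6.53 to 4.8 at a few counts per library. The genes named here for size reached a group mean of 1 CPM or more, and 9 others at that level, which have Gm names or are immunoglobulin segments, were skipped (-2.71 to 2.78). Beside Selp and Inhba, the more positive named genes were Dbn1 (2.46 ± 0.67), Tgfb3 (1.75 ± 0.51), Gspt2 (1.48 ± 0.34) and Pdgfa (1.37 ± 0.32), whose group means were between 0.0419 and 8.49 CPM. The more negative named genes were Dnm1 (-2.03 ± 0.60), Tmprss4 (-2.01 ± 0.50), Rpl31-ps15 (-1.91 ± 0.56), H2bc4 (-1.87 ± 0.43), Rmrp (-1.84 ± 0.57) and Cspg5 (-1.33 ± 0.39). Dnm1, a dynamin of vesicle fission, was 0.0663 ± 0.0428 against 0.202 ± 0.0286 CPM at 24 h and 13.8 ± 1.06 against 9.8 ± 1.6 CPM at 48 h, so its fold difference rests on a few counts at 24 h. Each of these 10 calls was lost under at least 1 alternative. Those of Gspt2 and H2bc4 were lost in 1 case, without shFabp7 replicate 3 at 24 h (adjusted p = 0.0551 and 0.0554), and that of Tmprss4 without shFabp7 replicate 2 at 24 h (adjusted p = 0.0512).

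The title of the series points to iron and lipid genes. In the ferroptosis and iron list 1 of 15 tested members was called, beside 5.6% of all tested genes. This was Tfrc, the transferrin receptor that takes up iron, at 301, 306 and 252 against 341, 346 and 307 CPM at 24 h and 229, 271 and 264 against 438, 418 and 410 CPM at 48 h. The effect of Tfrc grew from 0.21 ± 0.07 to 0.73 ± 0.07 (difference 0.51 ± 0.10, adjusted p = 0.00215), and at an unadjusted p under 0.05 6 members, Tfrc included, were more positive and 1 more negative (19.1% of all tested genes in either direction). In the fatty acid list 3 of 19 tested members were called (5.6% of all tested genes). These were Acsl5, Acsl4 and Acadl, whose calls held with 2, 3 and 2 of the 12 libraries left out in turn. Fabp5, the abundant fatty acid binding protein of these libraries, had a difference of 0.19 ± 0.12 (adjusted p = 0.449), and Arntl, a core clock factor, -0.19 ± 0.11 (adjusted p = 0.358). Dbp, an output gene of the clock, had effects of 0.07 ± 0.09 and -0.52 ± 0.09 (difference -0.59 ± 0.12, adjusted p = 0.00328).

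In 4 lists other than those of cell type markers edgeR called no member. At an unadjusted p under 0.05, which 3235 of all tested genes (19.1%) reached, there were 4 of 15 genes of NF-kB signalling, 1 of 21 of the type I interferon response, 2 of 10 of the MYC network and 2 of 11 amino acid transporters. DESeq2 called 1 gene in each of the type I interferon and MYC lists, and limma-voom 1 in the type I interferon list. In the interferon gamma response Igtp, Irgm1 and Psmb10 of 26 members were called, beside 5.6% of all tested genes. These calls held with 4, 7 and 4 of the 12 libraries left out in turn. The median partner effect of that list was -0.21 at 24 h and -0.13 at 48 h. At 24 h 0 members were higher and 14 lower, and at 48 h 2 (Irf8 and Psmb10) were higher and 12 lower. Over all tested genes 6.22% were higher and 4.65% lower at 24 h, and 19.9% higher and 11.6% lower at 48 h.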

How the data were processed

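RNA of 12 libraries was measured as reads per gene. The deposited table holds raw gene counts, and the submitters' processing notes name CASAVA 1.8.2, TopHat2 2.0.13, HTSeq 0.6.1p1 and the build GRCm39. Annotation, strand setting and order of steps are not given in the sources used here. A gene's reads and those of an overlapping antisense gene cannot be told apart. Groups came from the sample labels. Genes were kept by filterByExpr (minimum count 10, minimum total 15), scaled by TMM and tested by the robust quasi-likelihood test of edgeR 4.0.16 in R 4.3.3 with 1 mean per group. The partner effects, the time effects and the difference between partner effects were contrasts of this fit, adjusted over 16945 genes by the Benjamini-Hochberg method. The SE of a log2 fold change is its size divided by the square root of F. CPM are TMM-scaled counts scaled to a common library size, and levels of gene lists are means of log2 (CPM + 0.5). The fit and its test of the difference between partner effects were tried on simulated counts, and the other steps were not.

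Genes were named by size of the difference (6 per direction, mean of at least 1 CPM in a group), by p-value within each pattern and sign (4, mean of at least 5 CPM), and by p-value within each list (3 called members, or 2 where none was called), plus the Fabp genes and Arntl. Some genes that these rules name are not reported here. Other genes named are remaining members of a list, chosen after their values were seen. The comparison, the lists and these rules were chosen with earlier results of these data known. Alternatives were RLE, upper-quartile and total-count scaling, DESeq2 1.42.0, limma-voom (limma 3.58.1), no filter and a stricter filter, a minimum fold of 1.2, a block for the replicate number, other thresholds and each library left out. The removal of length and GC trends was added after the data were seen. It used transcript lengths of GENCODE annotation on GRCm38, and promoters came from RefSeq on GRCm38.p6, so no coordinate of the files was used. Library totals of 31952873 to 40638685 put the floor of 3 counts at 0.0713 to 0.101 CPM.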

Additional observations from a re-analysis of the deposited data

Results flagged for a closer look

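The partner effect at 24 h and that at 48 h differed, by the test of the difference itself, in 949 genes. Among the reported genes that the rules on size and p-value name, 5 had called partner effects of opposite sign at the 2 times. These 5 kept the called difference whichever library was left out. They are not all the reversing genes named, since 2 members of the glycolysis list reversed, Slc16a3 among them. The level with the shFabp7 partner went from lower to higher than with the control partner for Slc16a3 (difference 1.02 on the log2 scale), Apol7c (0.87) and Basp1 (0.85). It went from higher to lower for Snhg16 (-0.49) and for the pseudogene Rpl34-ps1 (-0.43), whose reads may belong to Rpl34.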

How the results depend on the processing

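The 949 called differences (750 more positive, 199 more negative) became 13 (12 and 1) against a minimum fold of 1.2. More positive genes numbered 341 after upper-quartile scaling, 446 with library totals and 483 with no filter, and more negative genes 356, 302 (DESeq2), 341 (no filter) and 416 (length and GC trends removed). With 1 library left out, called genes ranged from 319 to 1680, more positive ones from 183 to 1332 and more negative ones from 93 to 348. Under upper-quartile scaling the patterns counted 233 (appears, higher), 296 (appears, lower), 68 (grows, higher) and 26 (grows, lower). With library totals 311 genes appeared higher, and 72 and 22 grew. DESeq2 gave 287 growing higher and 29 reversing. With no filter, 273 appeared higher, 238 appeared lower, 26 grew lower and 37 reversed. Without length and GC trends 318 appeared lower, 317 and 34 grew and 26 reversed. Against the minimum fold 11 appeared higher, 1 grew lower, and the other patterns counted 0. At an adjusted p of 0.01 for the difference, the counts were 184 and 32 appearing, 78 and 6 growing and 11 fading. At 0.1 for the partner effects 46 genes reversed. With 1 library left out, genes appearing higher ranged from 128 to 772, appearing lower from 71 to 251, growing higher from 42 to 427, growing lower from 6 to 32, reversing from 5 to 49 and fading from 18 to 109. The partner effect at 24 h was called in 14 genes against the minimum fold and in 949 to 2525 with 1 library left out, and that at 48 h in 1005 and in 4300 to 5463. Beyond the fewer libraries or genes that a setting leaves by construction, the cause of these shifts was not tested. The RLE, voom, stricter-filter and block fits kept 780, 880, 890 and 842 of the 949 genes, and DESeq2 and the length and GC removal 921 and 854. Upper-quartile scaling, library totals and no filter kept 539, 644 and 660.

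Fabp5, which was not called (0.19), had differences from -0.01 (without control replicate 2 at 24 h) to 0.26. Fabp3, at 0 counts with the control partner at 24 h and not called, changed sign in the fit without shFabp7 replicate 2 at 24 h (-4.02 to 0.31 with 1 library left out), and its fitted values depend on the prior count. The replicate number as a block gave 862 calls. Samples of the same number did not deviate together (correlations from -0.14 to 0.07, and 6 of 18 best matches had the same number). These values cannot tell whether libraries of the same number share a mouse or culture, which the labels do not say. Genes at a few counts in a group, such as Dbn1 and Dnm1, are limited by depth.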

Other observations

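Of 28 genes of sterol and fatty acid synthesis 13 were higher with the shFabp7 partner at 24 h and 18 at 48 h, beside 6.22% and 19.9% of all tested genes. The difference was called for 4 (5.6% of all tested genes), among them Acly, Idi1 and Sqle, with values of 0.33 ± 0.07, 0.33 ± 0.09 and 0.28 ± 0.08. These 3 calls held with 8, 6 and 1 of the 12 libraries left out in turn. Of 20 replication genes 12 were higher at 24 h and 16 at 48 h (6.22% and 19.9% of all tested genes). Mcm4, a helicase subunit, was the 1 called difference (0.32 ± 0.07, held with 9 of the 12), beside 5.6% of all tested genes.

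Mrps12 and Mrps18b were called among 24 mitochondrial ribosomal proteins (0.36 ± 0.10 and 0.33 ± 0.09) and Sdhc, a subunit of succinate dehydrogenase, among 28 nuclear genes of the respiratory chain (0.29 ± 0.08). Of 12 tested genes of the mitochondrial genome mt-Nd1, mt-Nd2 and mt-Cytb were called, with differences of 0.38 ± 0.11, 0.36 ± 0.10 and 0.37 ± 0.10. These were 2 of 24, 1 of 28 and 3 of 12, beside 4.43% of all tested genes with a more positive effect. None of these 6 calls held whichever library was left out. Among 18 immediate early genes Ier3, Klf6 and Dusp5 were called (0.48 ± 0.12, 0.29 ± 0.07 and 0.24 ± 0.07), beside 5.6% of all tested genes. These calls held with 7, 7 and 1 of the 12 libraries left out in turn.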
